A study of Mus musculus with 4 samples.

Results

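Costimulatory and checkpoint receptors of T cells were measured as 10 genes among the 31053 of the feature table. They were chosen by symbol and comprised the TNF receptor family members Tnfrsf4 and Tnfrsf18, the CD28 family members Cd28, Icos, Ctla4 and Pdcd1, the inhibitory receptors Tigit and Lag3, the folate receptor relative Izumo1r, and the intracellular phosphatase Ptpn22. The cells were live ChAT-eGFP+ singlets sorted from the stromal vascular fraction of inguinal white adipose tissue (IWAT) and profiled by droplet 3′ single-cell RNA-seq. All donors were male ChATBAC-eGFP mice, in which a bacterial artificial chromosome carrying the choline acetyltransferase (Chat) locus drives eGFP. The mice were 5 weeks old at the start and lived at 30 °C, which is thermoneutral for mice, for 3 weeks. The 30 °C group then stayed at 30 °C for 4 h, and the 4 °C group was moved to 4 °C for 4 h. By the study's methods the cold mice first spent a day at room temperature, which cannot be told apart from the cold itself here. Each group had 2 libraries, and each library pooled 4 mice, so p-values measured the spread between pools.

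T cells need a second signal beside that of the antigen receptor. Cd28 and Icos deliver it through phosphoinositide 3-kinase, and the TNF receptors Tnfrsf4 (OX40) and Tnfrsf18 (GITR) add survival signals through TRAF adaptors. Checkpoint receptors oppose it: Ctla4 competes with Cd28 for shared ligands, Pdcd1 (PD-1) recruits phosphatases, Lag3 binds MHC class II and Tigit binds the nectin-like ligand CD155. Regulatory T cells, which carry the transcription factor Foxp3, are known for high levels of several of these receptors and are a prominent population of adipose tissue, where group 2 innate lymphoid cells also reside.

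Cells were put into classes by the unique molecular identifiers (UMIs, each standing for 1 captured transcript) of marker genes that were no members. Of 21253 cells kept, 4953 fell into 5 classes: 1735 Foxp3-positive CD4 T cells, 547 CD4 T cells with Cxcr5 and no Foxp3, 1426 other CD4 T cells, 643 gamma-delta T cells and 602 innate lymphoid cells. The Cxcr5-positive class carried a follicular helper pattern, since 9 of 10 genes of a follicular helper list were higher than in other CD4 T cells, although Cxcr5 itself belonged to the gate. The Foxp3-positive class carried a regulatory pattern, since 16 of 18 genes of a regulatory list were higher, although Foxp3 itself belonged to the gate. Innate lymphoid cells had between 8 and 9 of 9 group 2 markers detected, of which all but Rora and Areg belonged to the gate, as did the absence of Cd4 UMIs. A marker counted as detected with any UMI in the sum of a class, so this count does not by itself identify the class. As a background, 6583 B cells, 583 macrophages and 163 dendritic cells of the same libraries were summed as well. The libraries held 5191 to 5388 kept cells with median depths of 7520 to 8068 UMIs and shared 81 barcodes, and 15 cells met both the T cell and the innate lymphoid gate. T lineage cells outside the 5 classes held between 28.3% and 52.8% of the members' UMIs, and most of these cells had no Cd4 UMI.

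UMIs were summed over the cells of a class in a library and given as CPM, the UMIs of a gene scaled to the UMI total of that class in that library, and differences were tested in edgeR on those sums over all expressed genes, with an adjusted p under 0.05 as the call. A sum over a class cannot separate fewer cells with a transcript from less transcript per cell. Against other CD4 T cells, 6 members were higher in Foxp3-positive cells, where 9.32% of the 10328 genes tested were higher, and 2 were lower, where 9.59% of all genes were lower. In Cxcr5-positive cells 2 members were higher and 4 lower than in other CD4 T cells, beside 5.79% and 7.96% of all genes, and DESeq2 called 3, without Tnfrsf4, Ctla4 and Izumo1r. In gamma-delta T cells no member was higher and 9 were lower, beside 18.6% and 17.6% of all genes. In innate lymphoid cells no member was higher and 10 were lower, beside 14.5% and 14.2%. All 10 members differed between Foxp3-positive and Cxcr5-positive cells, 6 higher and 4 lower in Foxp3-positive cells, beside 15.6% and 12.7% of all genes, but DESeq2 called 6 of the 10, without Cd28, Tigit, Lag3 and Izumo1r, and 7 to 8 were called when a library was left out. The classes shared their libraries, and the library was a term of that fit.

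**Figure D1:**
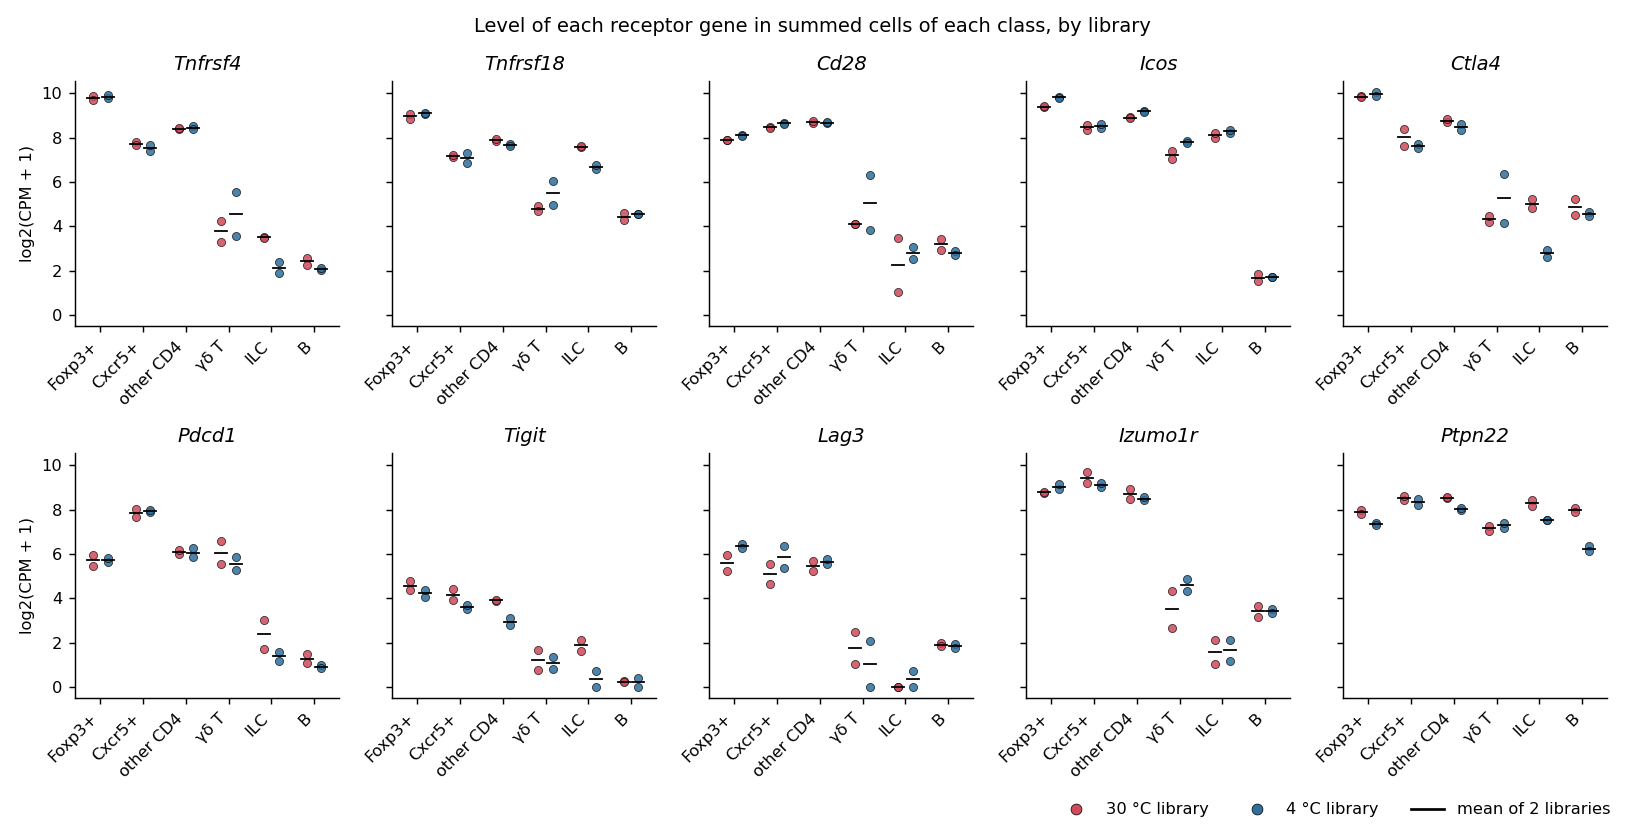
Levels of the 10 genes (CPM of the class in a library, log axis) in the 5 classes and in B cells, 1 point per library, with the 30 °C and 4 °C libraries in separate colours. Tnfrsf4, Tnfrsf18 and Ctla4 were highest in Foxp3-positive cells, Pdcd1 in Cxcr5-positive cells, and Ptpn22 lay between 69.9 and 391 CPM in every class shown, B cells included.

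Tnfrsf4 had the largest difference between Foxp3-positive and other CD4 T cells among the 10 genes. Foxp3-positive cells held 954 and 826 CPM in the 30 °C libraries and 873 and 967 CPM in those from 4 °C. Other CD4 T cells held 335, 344, 363 and 333 CPM, and Cxcr5-positive cells 221, 201.4, 167 and 201.1 CPM. Gamma-delta T cells, innate lymphoid cells and B cells stayed at or under 45.7 CPM in every library, so that the 3 CD4 classes did not overlap with one another or with these. The difference of Foxp3-positive from other CD4 T cells was 1.36 ± 0.110 on the log2 scale (SE), with an adjusted p of 2.84e-09, and Cxcr5-positive cells were lower than other CD4 T cells by a log2 difference of -0.85 ± 0.126. At an equal depth of 4203 UMIs per cell, between 78.2% and 83.1% of Foxp3-positive cells held a Tnfrsf4 UMI, against 1.40% to 2.55% of B cells, a class that should lack it. Without this thinning the shares were 88.9% to 92.1% and 3.09% to 4.22%, at median depths of 6261 to 7201 and 7609 to 8215 UMIs. Dendritic cells were the class outside the lymphoid ones with the most Tnfrsf4, at 97.6 and 149 CPM in the 30 °C group and 208 and 202 CPM in the 4 °C group.

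Tnfrsf18 lies next to Tnfrsf4 in the genome. On chromosome 4 of mm10, Tnfrsf4 spans 156013843 to 156016612 and Tnfrsf18 156026164 to 156028895, both on the plus strand, 9551 bp apart with no protein-coding gene between them. The antisense gene Gm16008 overlaps Tnfrsf18, and the strand setting of the counting is not given in the sources used here, so reads of these genes may be mixed. Tnfrsf18 followed Tnfrsf4 in the CD4 classes but not outside them. Foxp3-positive cells held 531, 464, 540 and 553 CPM, other CD4 T cells 228, 243, 209 and 197 CPM, and Cxcr5-positive cells 140, 147, 115 and 155 CPM, without overlap. Innate lymphoid cells held 190 and 195 CPM at 30 °C, just under other CD4 T cells, and 96.0 and 108 CPM at 4 °C, whereas their Tnfrsf4 did not exceed 10.3 CPM. Between 33.9% and 57.0% of innate lymphoid cells held a Tnfrsf18 UMI at equal depth, against 7.33% to 9.42% of B cells. The Foxp3-positive difference was 1.22 ± 0.0843 (log2, SE; adjusted p = 2.11e-10), and innate lymphoid cells differed from other CD4 T cells by -0.53 ± 0.0982 (adjusted p = 1.94e-04).

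The ranking of other CD4 T cells depended on which of them were counted. When cells with a UMI of Ikzf2 or Il2ra, genes also found in regulatory T cells, were left out, 614 other CD4 T cells remained. The other classes were not filtered in this way, so a Cxcr5-positive cell with such a UMI stayed in. Cxcr5-positive cells then differed from them by 0.02 in Tnfrsf4, by 0.02 in Tnfrsf18 and by 0.19 in Ctla4 (log2), with adjusted p values of 0.965, 0.953 and 0.521, and innate lymphoid cells by 0.21 in Tnfrsf18. The lower levels of these genes in Cxcr5-positive cells were thus not found against the filtered class. Pdcd1 was then called higher in Foxp3-positive cells (0.59, adjusted p = 0.0397) and in gamma-delta T cells (0.85, adjusted p = 0.00536), and Lag3 in Cxcr5-positive cells (1.21, adjusted p = 0.00398), where the full class had negative differences without a call. The Foxp3-positive differences in Tnfrsf4, Tnfrsf18 and Ctla4 kept their direction and their call with and without these cells.

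Cd28 ranked in the opposite way. This receptor for CD80 and CD86, which gives naive T cells their main costimulus, held 410, 433, 399 and 413 CPM in other CD4 T cells and 358, 349, 402 and 396 CPM in Cxcr5-positive cells. Those ranges overlapped, and the difference between them was not called (adjusted p = 0.465). Foxp3-positive cells held 233, 233, 279 and 271 CPM, under all libraries of both other CD4 classes, and differed from other CD4 T cells by -0.74 ± 0.131 (log2, SE; adjusted p = 0.0002), which DESeq2 did not call (-0.72, adjusted p = 0.373). Gamma-delta T cells ranged from 13.1 to 78.7 CPM and innate lymphoid cells from 1.0 to 10.2 CPM. At equal depth the share of innate lymphoid cells with a Cd28 UMI was 0.901% to 1.82%, which overlapped the 0.558% to 1.68% of B cells and was read as background.

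Icos, the inducible member of the same family, was found in all 4 T cell classes and in innate lymphoid cells. Foxp3-positive cells held 662 and 691 CPM before cold and 921 and 881 CPM after it. Other CD4 T cells ranged from 475 to 589 CPM, Cxcr5-positive cells from 328 to 394 CPM, innate lymphoid cells from 254 to 326 CPM and gamma-delta T cells from 129 to 230 CPM. None of the 5 ranges overlapped, although the lowest Cxcr5-positive library lay just above the highest innate lymphoid one. Between 61.2% and 68.0% of innate lymphoid cells and 40.3% to 49.6% of gamma-delta T cells held an Icos UMI at equal depth, against 0.848% to 1.29% of B cells. Foxp3-positive cells were higher than other CD4 T cells by 0.53 ± 0.0654 (log2, SE; adjusted p = 1.66e-06).

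Ctla4, which withdraws CD80 and CD86 from Cd28, showed nearly the pattern of Tnfrsf4. Foxp3-positive cells held 950, 903, 1061 and 939 CPM. Other CD4 T cells held 414, 454, 390 and 324 CPM, and Cxcr5-positive cells 199, 336, 209 and 185 CPM, so that these classes overlapped through 1 Cxcr5-positive library while Foxp3-positive cells stood above both. The Foxp3-positive difference from other CD4 T cells was 1.26 ± 0.133 (log2, SE; adjusted p = 1.83e-07). At equal depth, 86.6% to 92.0% of Foxp3-positive cells held a Ctla4 UMI, against 5.86% to 8.99% of B cells. The share in innate lymphoid cells, 1.79% to 6.31%, reached from below to within that of B cells, so these shares did not tell expression in the class from free RNA. Cd28, Ctla4 and Icos form a cluster on chromosome 1, with 113640 bp between the first pair, 62094 bp between the second pair and no protein-coding gene in either gap. Within this cluster Ctla4 and Icos were higher and Cd28 was lower in Foxp3-positive cells.

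The sequences before the RefSeq starts of Tnfrsf4 and Ctla4 are shown because no gene among 10328 followed either of them more closely over the 20 sums of class and library than the other did, and that of Tnfrsf18 because it is the neighbour of Tnfrsf4. Each is the 250 bases upstream of the start on the gene's strand (RefSeq, GRCm38.p6), with GGAAA, the core bound by NFAT factors, or its reverse complement TTTCC in capitals. The windows are chr4:156013445-156013694 for Tnfrsf4, chr4:156026072-156026321 for Tnfrsf18 and chr1:60908775-60909024 for Ctla4, which starts inside the longer gene span that the counting annotation family gives for Ctla4. The Tnfrsf18 window also overlaps its gene span, which starts at 156026164, and its GGAAA match lies inside that span.
Tnfrsf4: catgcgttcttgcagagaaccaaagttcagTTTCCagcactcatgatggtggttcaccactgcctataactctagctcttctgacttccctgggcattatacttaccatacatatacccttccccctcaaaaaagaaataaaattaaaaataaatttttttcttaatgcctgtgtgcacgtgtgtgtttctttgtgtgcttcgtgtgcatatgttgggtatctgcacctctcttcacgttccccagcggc
Tnfrsf18: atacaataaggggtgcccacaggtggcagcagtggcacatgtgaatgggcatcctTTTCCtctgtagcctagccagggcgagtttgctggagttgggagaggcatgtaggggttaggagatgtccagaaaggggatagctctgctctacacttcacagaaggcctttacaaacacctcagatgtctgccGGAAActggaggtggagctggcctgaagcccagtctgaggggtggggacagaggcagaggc
Ctla4: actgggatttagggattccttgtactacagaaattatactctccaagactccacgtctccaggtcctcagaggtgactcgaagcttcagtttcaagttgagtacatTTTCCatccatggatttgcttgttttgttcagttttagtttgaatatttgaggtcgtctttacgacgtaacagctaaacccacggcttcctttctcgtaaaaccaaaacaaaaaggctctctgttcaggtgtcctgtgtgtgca
The Tnfrsf4 and Ctla4 windows held 1 match each and the Tnfrsf18 window 2, beside 55.56% of 32815 windows of all genes with at least 1 match. The forkhead core GTAAACA, found in 3.163% of all windows, and the AP-1 motif TGANTCA, found in 6.753%, both read on either strand, had no match in the windows of the 7 members present in the table. A match describes letters and not a bound site.

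Pdcd1 was the member that set Cxcr5-positive cells apart. This receptor, which follicular helper cells carry at high levels, held 260, 204, 238 and 256 CPM in Cxcr5-positive cells. No other class exceeded 93.7 CPM, with 57.4 to 75.7 CPM in other CD4 T cells, 42.9 to 62.0 CPM in Foxp3-positive cells, 37.8 to 93.7 CPM in gamma-delta T cells and 1.3 to 7.2 CPM in innate lymphoid cells. Cxcr5-positive cells were higher than other CD4 T cells by 1.80 ± 0.145 (log2, SE; adjusted p = 4.39e-09) and higher than Foxp3-positive cells, which differed by -2.19 ± 0.144. Foxp3-positive cells against other CD4 T cells gave -0.40 with an adjusted p of 0.0667, and gamma-delta against other CD4 T cells -0.10 with an adjusted p of 0.688. At equal depth 47.4% to 57.8% of Cxcr5-positive cells held a Pdcd1 UMI, against 0.209% to 0.671% of B cells. The 28 to 52 Foxp3-positive cells per library that also held a Cxcr5 UMI had 106, 239, 150 and 102 CPM of Pdcd1, and those without one had 38.4, 45.3, 41.4 and 49.1 CPM, without overlap.

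Izumo1r, known as folate receptor 4 and carried by regulatory and by anergic or follicular T cells, was also highest in Cxcr5-positive cells, though less clearly. These cells held 819, 590.0, 512 and 592 CPM, Foxp3-positive cells 432, 445, 492 and 565 CPM and other CD4 T cells 359.9, 481, 341 and 377 CPM. The Cxcr5-positive range did not overlap with other CD4 T cells (log2 difference 0.64 ± 0.124, SE; adjusted p = 6.87e-04) but did with Foxp3-positive cells. Gamma-delta T cells did not exceed 28.5 CPM. Over the 20 sums the gene followed Cd4 (Pearson r = 0.981) and Trac (r = 0.976). Both were used in the gates, so their pattern over the classes was partly set by the gating.

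Tigit and Lag3 were the least captured members. Foxp3-positive cells held 19.9, 26.2, 15.7 and 19.7 CPM of Tigit, all above the 5.8 to 14.2 CPM of other CD4 T cells (log2 difference 1.01 ± 0.174, SE; adjusted p = 1.32e-04). Lag3 ranged from 36.7 to 86.2 CPM in Foxp3-positive cells, from 36.7 to 53.1 CPM in other CD4 T cells and from 23.9 to 81.7 CPM in Cxcr5-positive cells, all overlapping. The Foxp3-positive difference in Lag3 was 0.41 ± 0.138 with an adjusted p of 0.0381, and the call was lost in DESeq2 (adjusted p = 0.435), with more marker UMIs per class (0.36), without the library as a term (0.42) and without 30 °C replicate 1 (0.49), 30 °C replicate 2 (0.34) or 4 °C replicate 1 (0.31). Innate lymphoid cells held 1 Lag3 UMI in all 4 libraries together, and the level in other CD4 T cells was 266 times that, with an exact 95% counting interval of 47.5 to 10513. At equal depth, 13.1% to 20.3% of Foxp3-positive cells held a Lag3 UMI and 7.83% to 14.4% a Tigit UMI, against at most 0.977% and 0.176% of B cells.

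Ptpn22, a phosphatase that acts on Src family kinases and ZAP-70 downstream of the antigen receptor, was the member found in every lymphoid class. At 30 °C it held 348 and 391 CPM in Cxcr5-positive cells, 364 and 376 CPM in other CD4 T cells, 343 and 286 CPM in innate lymphoid cells, 256 and 221 CPM in Foxp3-positive cells, 154 and 131 CPM in gamma-delta T cells and 270 and 236 CPM in B cells. Foxp3-positive cells were lower than other CD4 T cells by a log2 difference of -0.69 ± 0.0751 (adjusted p = 2.75e-07). The other CD4 and Cxcr5-positive classes were not called apart (adjusted p = 0.437).

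Foxp3-positive cells carried the members together. At equal depth the median Foxp3-positive cell held UMIs of 6 of the 10 genes in every library, Cxcr5-positive and other CD4 T cells held 4 to 5, innate lymphoid cells 2, gamma-delta T cells 1 and B cells 0 to 1. Between 77.7% and 82.7% of Foxp3-positive cells held 5 or more members. The shares were 47.5% to 66.3% in Cxcr5-positive cells, 45.4% to 57.6% in other CD4 T cells and 0% in innate lymphoid cells. Within Foxp3-positive cells the pairs differed. Tnfrsf18 was found in 81.2% to 88.4% of the cells with Tnfrsf4 and in 55.7% to 70.0% of those without it, and Lag3 in 14.5% to 21.8% against 6.56% to 13.8%. Pdcd1 went the other way with Icos, at 11.2% to 18.2% of the cells with Icos and 20.0% to 32.5% of those without it. Ptpn22 was found in 46.7% to 61.3% of the cells with Tnfrsf18 and in 49.2% to 54.2% of those without it. Cells of 1 library share their source, and these shares are a description.

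**Figure D2:**
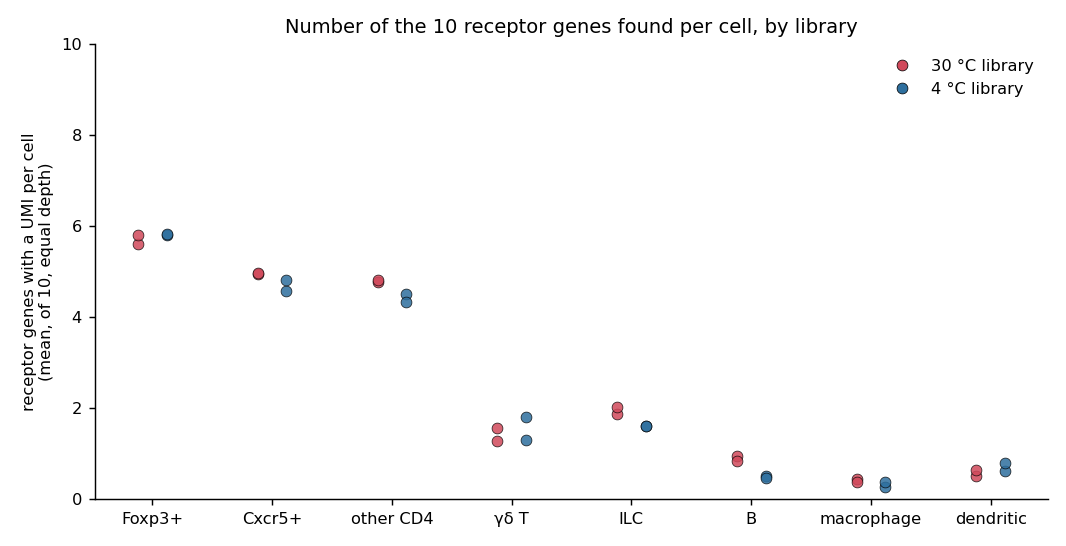
Mean number of the 10 genes with at least 1 UMI per cell after thinning to 4203 UMIs (vertical axis), by class (horizontal axis). Each library is 1 point, with the 30 °C and 4 °C libraries in separate colours, and B cells, macrophages and dendritic cells are included. Means were 5.61 to 5.82 in Foxp3-positive, 4.57 to 4.97 in Cxcr5-positive and 4.32 to 4.82 in other CD4 T cells. They were 1.59 to 2.03 in innate lymphoid cells and 1.27 to 1.80 in gamma-delta T cells.

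Foxp3-positive cells with a UMI of a proliferation gene had lower CPM of the members than those without one. CPM is a share of the UMIs of these cells, and UMIs per cell were not compared between them. The values thus do not say that a cell with such a UMI held fewer transcripts of a member. At 30 °C the former held 579 and 502 CPM of Tnfrsf4 and the latter 1461 and 1275 CPM, and at 4 °C 655 and 739 CPM against 1132 and 1164 CPM. Izumo1r showed the same order, with 310 to 409 CPM in the former and 593 to 701 CPM in the latter. All 10 genes had lower CPM in the former in each of the 4 libraries. The summed level of the proliferation list in the Foxp3-positive class was 1639 and 1473 CPM at 30 °C. It was 1439 and 957 CPM at 4 °C, with most of the gap in 1 cold library. The difference was not tested, and the temperature results were also computed without such cells.

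Over the 20 sums of class and library the members fell into patterns. Tnfrsf4 and Ctla4 correlated at r = 0.987, Cd28 with Izumo1r at r = 0.963 and with Lag3 at r = 0.944, and Tnfrsf18 with Icos at r = 0.917. Pdcd1 had r = -0.04 with Tnfrsf18 and r = 0.09 with Icos. Ptpn22 stood apart, with r between 0.14 and 0.42 with every other member, and its closest genes were Hdac4 (r = 0.888), Jak2 (r = 0.868) and Smurf2 (r = 0.865). Tnfrsf18 was closest to Peli1 (r = 0.944), an E3 ubiquitin ligase of immune signalling, Icos to Ikzf4 (r = 0.935), a transcription factor of regulatory T cells, and Pdcd1 to Rabgap1l (r = 0.954) and Nfatc1 (r = 0.935), the latter an NFAT factor. The 20 points share 4 libraries and 5 classes, so these coefficients are descriptions without a test.

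**Figure D3:**
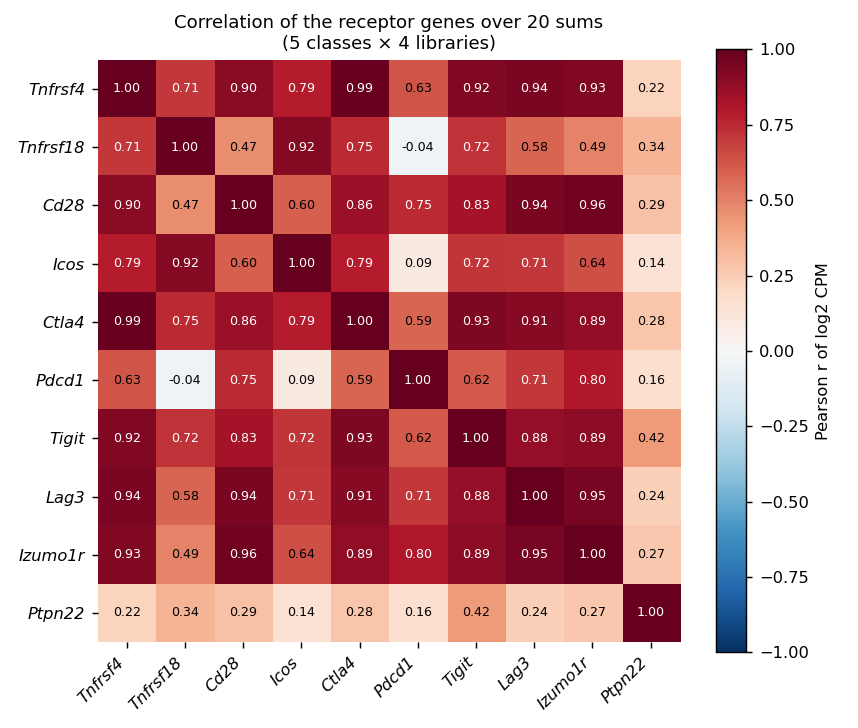
Pearson correlation between each pair of the 10 genes over the 20 sums of class and library (log2 CPM), colour scale from -1 to 1. Tnfrsf4, Ctla4, Cd28, Tigit, Lag3 and Izumo1r formed a block with r of 0.834 to 0.987, and the Ptpn22 row stayed at or under 0.42.

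The comparison of 4 °C with 30 °C asked which of these receptors moved within hours of cold. The share of kept cells in each class differed between groups by values that an exact permutation test of 2 against 2 libraries could not call, its smallest 2-sided p being 0.333. Foxp3-positive cells made up 7.47% ± 0.411 (SD, n = 2) at 30 °C and 8.85% ± 0.324 at 4 °C, and gamma-delta T cells 4.37% ± 0.219 and 1.69% ± 0.852, the 4 °C library with fewest holding 58 cells. The summed level of a handling and stress list (Fos, Jun, Egr1, Hspa1a, Hspa1b and Dnajb1) was 223 and 262 CPM in the warm and 263 and 308 CPM in the cold libraries of Foxp3-positive cells, 287 and 306 CPM against 449.6 and 515 CPM in gamma-delta T cells, and 351 and 323 CPM against 387 and 469 CPM in B cells. It overlapped between the groups in the other 3 classes, and its part in the temperature results was not tested.

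In Foxp3-positive cells, Icos and Lag3 rose and Ptpn22 fell, while the other 7 members did not pass the test. Among the 9993 genes tested there, 1.51% were higher and 2.28% lower at 4 °C. Icos went from 662 and 691 CPM to 921 and 881 CPM, so that both cold libraries lay above both warm ones, a log2 change of 0.36 ± 0.067 (SE) with an adjusted p of 0.00251. Ptpn22 went from 256 and 221 CPM to 169 and 155 CPM, also without overlap, a log2 change of -0.61 ± 0.0941 with an adjusted p of 4.02e-04. Lag3 went from 36.7 and 62.0 CPM to 86.2 and 76.5 CPM, a log2 change of 0.68 ± 0.161 with an adjusted p of 0.0178. The change in Lag3 was called in the main fit but not in DESeq2 (adjusted p = 0.715), without proliferating cells (log2 change 0.46, adjusted p = 0.258) at equal depth (0.44, adjusted p = 0.218), without the upper limit on genes per cell (0.34), with more marker UMIs per class (0.60), without cells with a B cell UMI (0.59), in 1 fit over all classes (0.68) or without 30 °C replicate 1 (0.35). Ptpn22 lost its call only without 30 °C replicate 1 (log2 change -0.49), and Icos without either 30 °C library (0.33 and 0.39), without the upper limit on genes per cell (0.26) or in 1 fit over all classes (0.36). The genes that marked the class most had small differences, with -0.01 in Tnfrsf4, 0.06 in Ctla4 and 0.08 in Tnfrsf18 (log2) and no call. Without proliferating cells Tnfrsf4 fell, by a log2 change of -0.30 ± 0.0688 (adjusted p = 0.0125), while Tnfrsf18 and Ctla4 had -0.10 and -0.10 with no call.

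In other CD4 T cells Ptpn22 was the single member called, where 0.417% of 9591 genes were higher and 0.980% lower. It went from 364 and 376 CPM to 249.8 and 271 CPM without overlap, a log2 change of -0.56 ± 0.0876 (SE) with an adjusted p of 0.0039, and lost the call only without 4 °C replicate 1 (adjusted p = 0.112). Tigit went from 13.7 and 14.2 CPM to 5.8 and 7.7 CPM, a log2 difference of -1.10 ± 0.289 that was not called (adjusted p = 0.0964), and Ctla4 from 414 and 454 CPM to 389.8 and 324 CPM (adjusted p = 0.169). Without proliferating cells both were called, with log2 changes of -1.39 and -0.38, as was Izumo1r with -0.35. In Cxcr5-positive cells none of the 10 members and 0% of 7963 genes were called by edgeR, with 479 genes at an unadjusted p under 0.05 and 13 called by DESeq2, and the smallest adjusted p of a member was 0.784. This class held 90 to 176 cells per library.

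In innate lymphoid cells 3 of the 5 members that passed the low-count filter fell and none rose, beside 1.97% higher and 3.07% lower of 7784 genes. Of these 5, Ctla4 and Tnfrsf4 passed the filter only through the 30 °C libraries, where they were high. Their direction was thus partly set by the filter, and the count of falls does not measure how many members fell. Tnfrsf18 went from 190 and 195 CPM to 96.0 and 108 CPM, a log2 change of -0.99 ± 0.142 (SE; adjusted p = 1.90e-04), and Ptpn22 from 343 and 286 CPM to 187 and 183 CPM, a change of -0.83 ± 0.128 (adjusted p = 0.0004). Ctla4 rested on few molecules, 35 and 24 UMIs in the 30 °C libraries against 12 and 10, and its level of 36.1 and 27.2 CPM before cold and 5.1 and 6.7 CPM after it gave -2.51 ± 0.348 (adjusted p = 1.21e-04). B cells held 36.7 and 21.7 CPM in the 30 °C libraries and 24.3 and 20.9 CPM in the 4 °C ones. The levels of both classes thus overlapped at 30 °C, and innate lymphoid cells lay below B cells at 4 °C. Without the cells that held a proliferation UMI, Ctla4 was at 8 and 12 UMIs in the warm libraries and 4 and 5 in the cold ones, too few for the filter, so it was not tested there. Tnfrsf18 (-0.87) and Ptpn22 (-0.79) kept their calls. With that exception all 3 genes had their cold libraries below their warm ones and kept their calls under every alternative run, also when innate lymphoid cells were chosen by Gata3, Rora and Il7r instead, where the changes were -0.73, -0.98 and -1.88 for Tnfrsf18, Ptpn22 and Ctla4. Icos, at 254 and 298 CPM against 296 and 326 CPM, overlapped between the groups with a log2 difference of 0.11 and no call. The receptor for IL-33, Il1rl1, a marker used in the gate, was 164 and 167 CPM in the warm libraries and 35.7 and 34.2 CPM in the cold ones. Il13, also in the gate, was 353 and 249.5 CPM in the warm libraries and 822 and 1055 CPM in the cold ones. Markers that chose the cells thus moved with temperature. Whether the gate drew a different mix of innate lymphoid cells at 4 °C was not tested beyond that alternative gate.

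**Figure D4:**
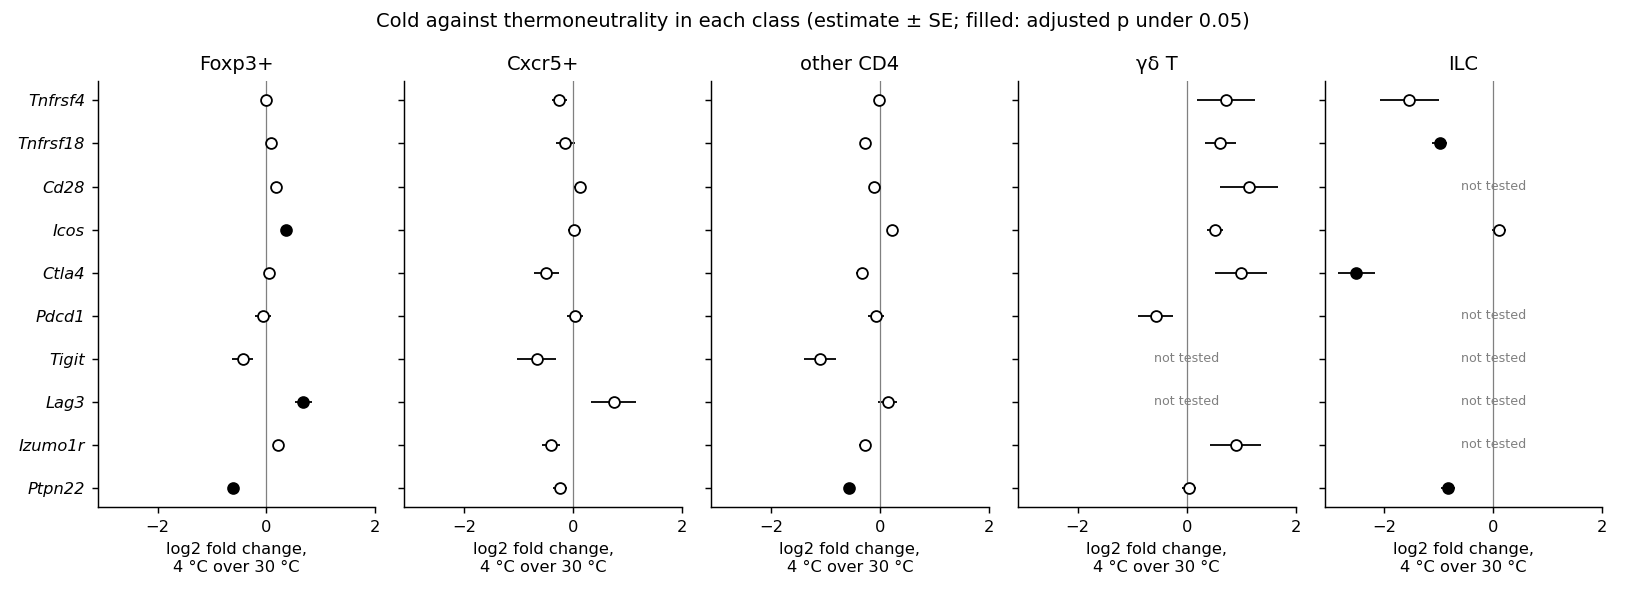
Log2 change at 4 °C against 30 °C of the 10 genes in each class with error bars of 1 SE, filled where the adjusted p from edgeR was under 0.05. Filled points were Icos, Lag3 and Ptpn22 in Foxp3-positive cells, Ptpn22 in other CD4 T cells, and Tnfrsf18, Ctla4 and Ptpn22 in innate lymphoid cells. Ptpn22 was also called in B cells, which were summed as a background.

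Gamma-delta T cells had no call among the 8 members tested, beside 1.79% higher and 2.52% lower of 8860 genes. Icos went from 129 and 169 CPM to 230 and 216 CPM (log2 difference 0.52 ± 0.148, SE; adjusted p = 0.0718). Cd28 was 16.2 and 16.0 CPM at 30 °C but 13.1 and 78.7 CPM at 4 °C, and Ctla4 was 17.3, 20.9, 16.9 and 80.3 CPM, so that 1 cold library carried the whole difference. That library, 4 °C replicate 2, held 58 of these cells, and without it Cd28 differed by -0.36, Ctla4 by -0.24 and Tnfrsf4 by -0.40, whereas without 4 °C replicate 1 these were called at 2.22, 1.99 and 1.67. The summed cytotoxic marker list in the class was 840.3 and 71.9 CPM in the 30 °C libraries and 178 and 625 CPM in the 4 °C ones, and its part in these values was not tested.

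Ptpn22 fell furthest in B cells, the largest class. It went from 270 and 236 CPM to 80.0 and 69.9 CPM, a log2 change of -1.88 ± 0.126 (SE) with an adjusted p of 0.00657, where 0.702% of 11673 genes were higher and 1.08% lower. The call was lost without either 4 °C library (adjusted p = 0.0639 and 0.0856). At equal depth the share of B cells with a Ptpn22 UMI ranged from 23.5% to 66.3% over the libraries. In macrophages, where 13.0% of 8030 genes were called, it went from 68.6 and 58.9 CPM to 47.0 and 35.6 CPM without a call (adjusted p = 0.0829). In gamma-delta T cells it was 154 and 131 CPM against 143 and 169 CPM, with overlap. The fall of B cells was set against those of other CD4 T cells and of innate lymphoid cells in an edgeR fit of 6 classes. It differed from the former by -1.34 ± 0.147 (log2, SE, adjusted p = 6.23e-05) and from the latter by -1.09 ± 0.159 (adjusted p = 9.75e-04). In that fit 0.371% and 0.688% of 11042 genes differed. The fit was chosen after seeing the data and was not repeated under the alternatives.

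**Figure D5:**
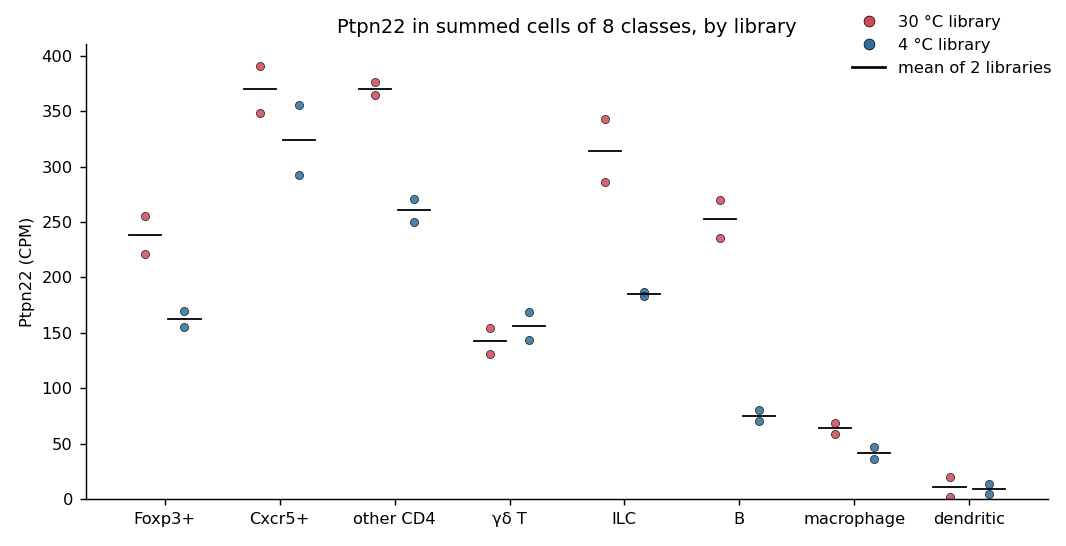
Ptpn22 level (CPM of the class in a library, axis from 0) at 30 °C and 4 °C, 1 point per library. Both 4 °C libraries lay below both 30 °C libraries in Foxp3-positive cells, other CD4 T cells, innate lymphoid cells, B cells and macrophages, with the widest gap in B cells.

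The first 250 bases before the RefSeq start of Ptpn22, at chr3:103859545-103859794 on the plus strand of GRCm38.p6 and just upstream of the gene's span on chromosome 3 from 103859795 to 103912247, are shown because the gene fell in 4 of the classes tested.
Ptpn22: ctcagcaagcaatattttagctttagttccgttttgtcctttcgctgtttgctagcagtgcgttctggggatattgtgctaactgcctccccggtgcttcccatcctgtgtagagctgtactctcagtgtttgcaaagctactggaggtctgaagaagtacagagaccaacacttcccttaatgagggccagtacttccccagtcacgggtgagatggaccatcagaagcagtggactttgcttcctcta
This window held no GGAAA or TTTCC, and neither GTAAACA nor TGANTCA, while the window of another start in the table held 1 GGAAA.

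Whether a temperature effect differed between the 5 classes was tested against other CD4 T cells. No member was called in any of the 4 contrasts, among 0.0484% of all genes called for Foxp3-positive cells, 0% for Cxcr5-positive cells, 0.184% for gamma-delta T cells and 0.232% for innate lymphoid cells. The smallest adjusted p values were those of Ctla4 and Tnfrsf18 in innate lymphoid cells, 0.173 and 0.177, at differences of -2.19 and -0.71 (log2). Ctla4 in innate lymphoid cells was called when more marker UMIs were required and without 4 °C replicate 2. Of gamma-delta T cells, Cd28, Ctla4 and Tnfrsf18 were called without 4 °C replicate 1 and Izumo1r without 30 °C replicate 2, and 4 of the 10 genes were called in 1 or both of these classes when no filter on low counts was applied. The fall of Ptpn22 was not shown to differ among Foxp3-positive, other CD4 and innate lymphoid cells, and the rise of Icos was not shown to be particular to Foxp3-positive cells.

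Among related genes listed with the members, 16 ligands, 26 other receptors and 58 signalling genes and brakes were tested in the same fits. In Foxp3-positive cells 1 of 9 ligands tested rose and 1 fell, 3 of 23 other receptors rose and 2 fell, and 5 of 58 signalling genes rose and 3 fell, with median log2 changes of -0.02, 0.09 and 0.15 beside 0.00 over all genes. Of all genes tested in that class, 1.51% rose and 2.28% fell. The receptors that rose were Cd27 (0.54), a TNF receptor of T cell survival, Vsir (0.57), the checkpoint VISTA, and Cd5 (0.39), a brake on the antigen receptor. Those that fell were Klrg1 (-0.46), an inhibitory receptor of terminal effector cells, and Slamf6 (-0.42). Pik3ip1, an inhibitor of phosphoinositide 3-kinase, went from 52.4 and 41.7 CPM to 14.3 and 16.5 CPM, a log2 change of -1.68, and fell also in other CD4 T cells (-1.96), gamma-delta T cells (-1.71), innate lymphoid cells (-2.21) and B cells (-2.43). It shared the direction of Ptpn22 in the classes where both were called.

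In innate lymphoid cells, where 1.97% of all genes rose and 3.07% fell, 3 of 14 other receptors rose and 2 fell. Slamf1 (2.14), Cd160 (1.67) and Cd27 (0.62) were the former, and Klrg1 (-1.70) and Nt5e (-1.67), the ectoenzyme CD73, the latter. Of 7 ligands, Tnfsf9 (0.81) and Tnfsf14 (0.66) rose and none fell. Of 56 signalling genes and brakes tested, 5 rose and 5 fell. Those that rose included the transcription factors Egr3 (1.86) and Irf4 (1.73) and the phosphatase Ptpn6 (1.31), and those that fell included, beside Pik3ip1, Cblb (-1.42), a ubiquitin ligase that restrains costimulated T cells, and Nfkb1 (-0.88). In other CD4 T cells, where 0.417% of all genes rose and 0.980% fell, 1 of 23 other receptors rose and 1 fell. The former was Cd40lg (0.70), the ligand through which helper T cells act on B cells, and the latter Slamf6 (-0.53). For dendritic cells, where 0.983% of 5492 genes were called, Tnfsf9 went from 4.3 and 3.3 CPM, which were 2 and 1 UMIs, to 65.0 and 62.3 CPM. Tnfsf9 passed the low-count filter there only through the 4 °C libraries, where it was high, so its direction was partly set by the filter. Cd274, which encodes the PD-1 ligand, had a log2 change of 1.51 in dendritic cells, while Tnfrsf4 and Tnfrsf18 had differences of 0.76 and 0.67 that were not called.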

How the data were processed

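The deposited files held raw UMI counts of each gene and cell in 4 libraries, which the authors made with Cell Ranger on GRCm38 (mm10). Its version is 3.0.0 in the file headers and 3.1.0 in the submitters' processing notes, which also name STAR and Seurat 4.2.0. Gene positions are those of mm10 and promoters of RefSeq (GRCm38.p6), where 7 of the 10 genes matched.

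The study's filters were applied to cells: over 200 genes, below 5000 genes and mitochondrial UMIs under 7.5%. Classes excluded cells with 2 or more UMIs summed over B cell marker genes or 3 or more of myeloid genes (C1qa, Csf1r, Lyz2). T cells had at least 2 UMIs of Cd3d, Cd3e, Cd3g, Trac, Trbc1 and Trbc2. CD4 classes had a Cd4 UMI and none of Cd8a or Cd8b1, split by 1 or more UMIs of Foxp3 or Cxcr5, and gamma-delta T cells 2 or more Trdc UMIs. Innate lymphoid cells had at most 1 UMI of Cd3d, Cd3e and Trac, no Cd4, at least 3 of Il1rl1, Il17rb, Il13, Il5 and Calca, and 1 or more of Il7r or Gata3. B cells had 3 or more B cell UMIs and no T cell UMI. Doublets were left in except in 1 alternative that dropped cells marked by Scrublet (scanpy 1.11.5).

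UMI counts were summed per class and library and tested in edgeR 4.0.16 (R 4.3.3) with TMM, filterByExpr and its quasi-likelihood F test. P-values were adjusted by Benjamini-Hochberg across the genes of each fit. Temperature was fitted within each class on 4 sums. Classes and differences of temperature effects were fitted on 20 sums with the library as a term. Shares of cells were compared by exact permutation of 2 against 2 libraries. Kept cells held 5.34e+07 to 5.49e+07 UMIs per library, and the 5 classes 1.04e+07 to 1.37e+07, which bounded the precision of low genes. Counting intervals were exact and cover counting error only. The scripts were tested on simulated counts. Alternatives were DESeq2 1.42.0, its size factors, no low-count filter, a replicate block, other cell filters and gates, equal depth, no doublets, and each library left out in turn. For equal depth each cell was thinned to 4203 UMIs, the percentile of rank 10 of depth, and shallower cells were left out. All 10 members are reported. From lists of ligands, receptors, signalling genes and class markers, the 3 largest rises and falls among called genes were eligible to be named, and for likeness the 3 genes with the highest r of log2 CPM (prior count 2). The members and lists were chosen with earlier results of these data known.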

Additional observations from a re-analysis of the deposited data

Results flagged for a closer look

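The temperature effect on Ptpn22 differed between B cells and other classes by a test of the difference itself. The fit behind this test was chosen after seeing the data. It was not repeated under the alternatives, so whether the difference depends on a single library was not tested. The log2 change in B cells was lower than that in other CD4 T cells by -1.34 (adjusted p = 6.23e-05 in edgeR) and lower than that in innate lymphoid cells by -1.09 (adjusted p = 9.75e-04), and both cold libraries lay below both warm ones in all 3 classes.

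Members also appeared in cells outside the 5 classes. Tnfrsf4 reached a mean of 164 CPM over the 4 libraries in dendritic cells, against 3.1 to 5.0 CPM in B cells, and 24.0% to 36.4% of dendritic cells at equal depth held a UMI, against 1.40% to 2.55% of B cells. Lag3 reached a mean of 15.02 CPM in macrophages, with 7.5 and 9.8 CPM in the warm libraries and 16.1 and 26.7 CPM in the cold ones, a log2 difference of 1.12 ± 0.417 (SE) that was not called (adjusted p = 0.114). The warm values were 7 and 10 UMIs. Lag3 passed the low-count filter in macrophages only through the 4 °C libraries, where it was high, so the direction of this difference was partly set by the filter. At equal depth 2.06% to 5.93% of macrophages held a Lag3 UMI, against 0.545% to 0.977% of B cells.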

How the results depend on the processing

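Depth limited Tigit and Lag3 in all classes and every member in the 58 gamma-delta T cells of 4 °C replicate 2. The temperature fits had 2 libraries in each group, and a call lost when 1 of them was left out was made with 1 fewer library. The calls of Tnfrsf18 and Ptpn22 in innate lymphoid cells kept their direction and their side of the threshold under every alternative run. That of Ctla4 did so under all but the one without proliferating cells, where it could not be fitted. In the main fit Ctla4 passed the low-count filter only through the warm libraries, where it was high, so its direction was partly set by the filter. The share of innate lymphoid cells with a Ctla4 UMI at equal depth did not exceed that of B cells. The kept call of Ctla4 thus does not tell expression in the class from free RNA. The other innate lymphoid gate and the fits of B cells, macrophages and dendritic cells were chosen after seeing the data. Of the values of single genes under the alternatives, 3981 kept both, 339 were no longer called, 45 became called and 77 changed sign. Where a value below differs from that in the text, the cause was not tested unless cells or genes were left out by construction.

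DESeq2 called 115 genes at 4 °C in Foxp3-positive cells (379 in edgeR), 13 in Cxcr5-positive cells (0), 79 in other CD4 T cells (134), 142 in gamma-delta T cells (382), 109 in innate lymphoid cells (392) and 452 in B cells (208). Between classes it called 1129 genes for Foxp3-positive against other CD4 T cells (1953), 931 genes and 3 members for Cxcr5-positive against other CD4 T cells (1420 and 6), and 6 members for Foxp3-positive against Cxcr5-positive cells (10). DESeq2 size factors in edgeR gave 2 genes in Cxcr5-positive cells, and a mitochondrial limit of 15% gave 19. Without a filter on low counts 626 genes were called in Foxp3-positive cells, 360 genes and 3 members in other CD4 T cells, 804 genes and 4 members in gamma-delta T cells, and 434 genes and 6 values of members in the differences of temperature effects between classes (48 and 0), namely Ctla4 and Tnfrsf18 of innate lymphoid cells and Cd28, Ctla4, Tnfrsf18 and Izumo1r of gamma-delta T cells.

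The labels do not say that libraries with the same number shared anything else. Their deviations correlated at -0.08 to 0.13 in the 5 classes and 0.32 in B cells, over 2 pairs, too few to take the numbers as pairs. With the replicate number as a block, 671 genes were called in Foxp3-positive cells, 81 in Cxcr5-positive cells, 496 genes and 5 members in other CD4 T cells (Ptpn22, Ctla4, Tigit, Izumo1r and Icos), 1 member in gamma-delta T cells (Icos) and 1068 genes and 2 members in B cells, where the fit without it had called 1 member. Without the library term, that is with no replicate block, the differences between classes numbered 24 genes.

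Without the upper limit on genes per cell 236 genes and 1 member (Ptpn22) were called in Foxp3-positive cells, 16 genes in Cxcr5-positive cells, 0 in gamma-delta T cells, 48 in B cells, 5781 between gamma-delta and other CD4 T cells (3737) and 5 in the differences between classes. With more marker UMIs per class 230 genes were called in Foxp3-positive cells, 8 in Cxcr5-positive cells, 1 member in gamma-delta T cells and 1 member in the differences between classes (Ctla4 of innate lymphoid cells). Without proliferating cells 222 genes were called in Foxp3-positive cells, 20 in Cxcr5-positive cells, 222 genes and 4 members in other CD4 T cells, 248 genes and 1 member (Pdcd1, -1.16) in gamma-delta T cells, 973 genes and 2 members in B cells, and 1907 genes between Foxp3-positive and Cxcr5-positive cells (2927). Without cells with a B cell UMI 220 genes were called in Foxp3-positive cells and 22 in Cxcr5-positive cells. In 1 fit over all classes 142 genes and 1 member were called in Foxp3-positive cells, 22 genes in Cxcr5-positive cells and 1 member in gamma-delta T cells. At equal depth 16 genes were called in Cxcr5-positive cells, 194 genes and 1 member in gamma-delta T cells, 595 genes in B cells, 2491 between gamma-delta and other CD4 T cells and 1878 between Foxp3-positive and Cxcr5-positive cells. Without Ikzf2 or Il2ra UMIs 60 genes were called in other CD4 T cells and 29 in the differences between classes.

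Leaving out 1 library at a time, the temperature comparison called 70 to 808 genes and 0 to 4 members in Foxp3-positive cells, 0 to 76 and 0 to 1 in Cxcr5-positive cells, 36 to 353 and 0 to 2 in other CD4 T cells, 255 to 708 and 1 to 5 in gamma-delta T cells, 307 to 613 and 3 in innate lymphoid cells, and 0 to 599 and 0 to 3 in B cells. The comparisons with other CD4 T cells called 1288 to 1484 genes and 7 to 9 members for Foxp3-positive cells, 830 to 1080 and 6 for Cxcr5-positive cells, 2588 to 3249 and 9 for gamma-delta T cells, and 2145 to 2429 and 9 to 10 for innate lymphoid cells. Foxp3-positive against Cxcr5-positive cells gave 2089 to 2387 genes and 7 to 8 members, and the differences of temperature effects 30 to 51 genes and 0 to 3 members.

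Over the same fits the log2 difference at 4 °C changed sign for the genes named here with their lowest and highest values. In Foxp3-positive cells it spanned both signs for Tnfrsf4 (-0.11 to 0.11), Tnfrsf18 (-0.017 to 0.19), Ctla4 (-0.047 to 0.16) and Pdcd1 (-0.31 to 0.22). For Cxcr5-positive cells the genes were Tnfrsf18 (-0.36 to 0.053), Icos (-0.066 to 0.10) and Pdcd1 (-0.15 to 0.23). In other CD4 T cells it spanned both signs for Tnfrsf4 (-0.093 to 0.062), Pdcd1 (-0.27 to 0.10) and Lag3 (-0.078 to 0.36). For gamma-delta T cells the genes were Tnfrsf4 (-0.40 to 1.67), Cd28 (-0.36 to 2.22), Ctla4 (-0.24 to 1.99), Pdcd1 (-0.9996 to 0.054) and Ptpn22 (-0.064 to 0.17). In innate lymphoid cells it spanned both signs for Icos (-0.020 to 0.24). Against other CD4 T cells the sign changed for Lag3 (-0.31 to 0.084) in Cxcr5-positive cells and Pdcd1 (-0.42 to 0.074) in gamma-delta T cells.

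Under the other alternatives the log2 values that changed sign were these. Without a filter on low counts, for 4 °C against 30 °C, they were Tnfrsf4 (0.0011) in Foxp3-positive cells. With more marker UMIs per class, for 4 °C against 30 °C, they were Tnfrsf4 (0.0099) and Pdcd1 (0.043) in Foxp3-positive cells, Icos (-0.075) in Cxcr5-positive cells, Ptpn22 (-0.11) in gamma-delta T cells. With more marker UMIs per class, for classes against other CD4 T cells, they were Lag3 (0.12) in Cxcr5-positive cells, Pdcd1 (0.038) in gamma-delta T cells. Without the upper limit on genes per cell, for 4 °C against 30 °C, they were Tnfrsf18 (-0.080) and Ctla4 (-0.10) in Foxp3-positive cells, Cd28 (-0.0095), Icos (-0.19) and Pdcd1 (-0.057) in Cxcr5-positive cells, Pdcd1 (0.042) in other CD4 T cells, Ptpn22 (-0.53) in gamma-delta T cells. Without the upper limit on genes per cell, for classes against other CD4 T cells, they were Lag3 (0.27) in Cxcr5-positive cells, Tnfsf14 (-0.069) in gamma-delta T cells. Without proliferating cells, for 4 °C against 30 °C, they were Tnfrsf18 (-0.098), Ctla4 (-0.10) and Egr3 (-0.053) in Foxp3-positive cells, Cd28 (-0.92), Izumo1r (-1.49) and Ptpn22 (-0.31) in gamma-delta T cells. Without proliferating cells, for classes against other CD4 T cells, they were Lag3 (0.028) and Ptpn22 (-0.022) in Cxcr5-positive cells, Pdcd1 (0.20) in gamma-delta T cells, Cxcr4 (-0.16) in innate lymphoid cells. At a mitochondrial limit of 15%, for 4 °C against 30 °C, they were Icos (-0.021) and Pdcd1 (-0.0047) in Cxcr5-positive cells. At a mitochondrial limit of 15%, for classes against other CD4 T cells, they were Lag3 (0.0022) in Cxcr5-positive cells. Without cells with a B cell UMI, for 4 °C against 30 °C, they were Icos (-0.0030) and Pdcd1 (-0.085) in Cxcr5-positive cells, Tnfrsf4 (0.032) in other CD4 T cells, Ptpn22 (-0.039) in gamma-delta T cells. Without cells with a B cell UMI, for classes against other CD4 T cells, they were Pdcd1 (0.0077) in gamma-delta T cells. At equal depth, for 4 °C against 30 °C, they were Lag3 (-0.057) in Cxcr5-positive cells, Pdcd1 (0.11) in other CD4 T cells, Ptpn22 (-0.31) in gamma-delta T cells. At equal depth, for classes against other CD4 T cells, they were Pdcd1 (0.13) in gamma-delta T cells. Without Ikzf2 or Il2ra UMIs, for 4 °C against 30 °C, they were Tnfrsf4 (0.18) and Lag3 (-0.60) in other CD4 T cells. Without Ikzf2 or Il2ra UMIs, for classes against other CD4 T cells, they were Pdcd1 (0.59) in Foxp3-positive cells, Tnfrsf4 (0.017), Tnfrsf18 (0.017), Ctla4 (0.19), Lag3 (1.21), Klrg1 (0.68) and Il2ra (6.90) in Cxcr5-positive cells, Pdcd1 (0.85) in gamma-delta T cells, Tnfrsf18 (0.21) and Ikzf2 (8.93) in innate lymphoid cells, the last gene and Il2ra being those used to leave cells out. Without Scrublet doublets, for 4 °C against 30 °C, they were Tnfrsf4 (0.0031) in other CD4 T cells.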

Other observations

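Other receptors and ligands of the same system were tested between the classes. Of 24 other receptors tested, 10 were higher and 7 lower in Foxp3-positive than in other CD4 T cells, beside 9.32% and 9.59% of all genes. Klrg1 (log2 difference 2.70), the checkpoint Havcr2 (TIM-3, 2.58) and the costimulatory TNF receptor Tnfrsf9 (4-1BB, 1.78) led the former, and Cd40lg (-2.69), Cd200 (-1.84) and Cd160 (-1.62) the latter. Against the same class 3 were higher and 9 lower in Cxcr5-positive cells (5.79% and 7.96% of all genes), among them Cd160 (1.51) and Klrg1 (-3.49, from 5 UMIs in all, and 0.68 once other CD4 T cells with Ikzf2 or Il2ra UMIs were left out). In gamma-delta T cells 5 were higher and 15 lower (18.6% and 17.6%), among them the TNF receptor Tnfrsf25 (2.24) and Cd200 (-4.67), and in innate lymphoid cells 3 were higher and 16 lower (14.5% and 14.2%), among them Cd101 (2.61) and Cd6 (-9.31, from 5 UMIs in all).

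Ligands were tested in the same cells. Of 11 tested, 2 were higher and 1 lower in Foxp3-positive than in other CD4 T cells, beside 9.32% and 9.59% of all genes. The former were Cd80 (2.32) and Cd86 (0.64), the ligands shared by Cd28 and Ctla4, and the latter was Tnfsf14 (-1.82). In innate lymphoid cells 5 were higher and 5 lower, beside 14.5% and 14.2%. Icosl (2.59), the ligand of Icos, and the TNF family members Tnfsf9 (2.55) and Tnfsf14 (2.39) led the former. Pvr (-2.46), the ligand of Tigit, Cd86 (-2.10) and Pdcd1lg2 (-1.22) led the latter. At 4 °C Icosl was lower in macrophages (-0.91).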
